A study of Mus musculus with 8 samples.

Results

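The 9 genes described here are the BMP receptor genes Bmpr1a, Bmpr1b, Acvr1 and Bmpr2, the inhibitor of differentiation genes Id1, Id2, Id3 and Id4, and Bambi. They were taken as every probe set whose platform annotation names exactly 1 gene, that gene being 1 of these 9, and they hold 24 of 34945 such probe sets and 9 of the 18193 genes those sets represent. The samples were 4 mutant tongue buds (Alk5 fl/fl with Wnt1-Cre) and 4 control tongue buds (Alk5 fl/fl without Cre), all C57BL/6J embryos of embryonic day 13.5 whose sex was not determined, each read on a one-colour Affymetrix array. Both groups carry the floxed allele of Alk5, the TGF-beta type I receptor whose gene is Tgfbr1. Wnt1-Cre, driven from Wnt1 sequences active in neural crest cells, is meant to remove it in cranial neural crest, while muscle, endothelial and epithelial cells of the bud arise from other sources and keep the gene. No group carried Wnt1-Cre alone. Every value is a log2 expression value made by RMA, and a log2 change is the mean of the mutant arrays minus the mean of the control arrays. A gene passed the test at an adjusted p under 0.05 in limma, with Benjamini-Hochberg adjustment over all genes, or over all probe sets where a probe set is described.

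Bone morphogenetic proteins bind a complex of type I receptors (Bmpr1a, Bmpr1b, Acvr1) and a type II receptor (Bmpr2 is the one dedicated to BMP), and the type I kinases phosphorylate Smad1, Smad5 and Smad9, which enter the nucleus with Smad4. The Id genes are among the best known direct targets of these Smads. Id proteins have the helix-loop-helix of the bHLH transcription factors without the basic region that binds DNA, so they capture the E proteins that partner factors such as MyoD and myogenin and hold back muscle differentiation. Bambi resembles a type I receptor but has no kinase domain, and as a pseudoreceptor it dampens BMP and TGF-beta signals. It can be induced by BMP and, in some cells, by TGF-beta and Wnt. In the jaw and tongue, BMP signals pattern the neural crest mesenchyme that surrounds the muscle precursors.

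The array medians lay between 5.96 and 6.01, and correlations between arrays over all probe sets ran from 0.995 to 0.998 among mutants, from 0.992 to 0.997 among controls and from 0.990 to 0.996 across the groups. The first principal component of the 18193 genes held 45.2% of the variance and parted the groups. The second held 18.7%, with control 1 and mutant 1 at its ends, and control 3 alone lacked Y-linked signal (a mean log2 value of 3.09 over 3 genes, with 8.44 to 8.73 on the remaining 7 arrays). It is not stated whether the buds came from separate litters, so the p-values measure only the spread between these samples. The targeted gene was higher in mutants: Tgfbr1 read 12.42, 12.42, 12.37 and 12.36 on mutant arrays and 12.03, 12.12, 11.97 and 11.89 on control arrays (log2 change 0.39, SE 0.058, limma adjusted p = 0.0034). Where its probes lie relative to the floxed part is not given in the sources used here, so this reading checks neither the deletion nor the sample names.

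Setting mutant beside control buds asked whether loss of Alk5 in neural crest went with a change in BMP receptors or in genes that BMP signals induce. Bambi, Id2, Id3 and Id1 rose in mutant buds, by 1.59-fold, 1.46-fold, 1.31-fold and 1.25-fold. Id4 did not pass (log2 change 0.19), and 0 of the 4 receptor genes passed. Thus 4 of the 9 genes rose and 0 fell, where 4.2% of all 18193 genes tested were called higher and 5.52% lower. The median log2 change of the 9 was 0.19, against −0.01 over all genes. The RNA came from whole buds, so a change in the number of cells of a type and a change in RNA per cell cannot be told apart.

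**Figure D1:**
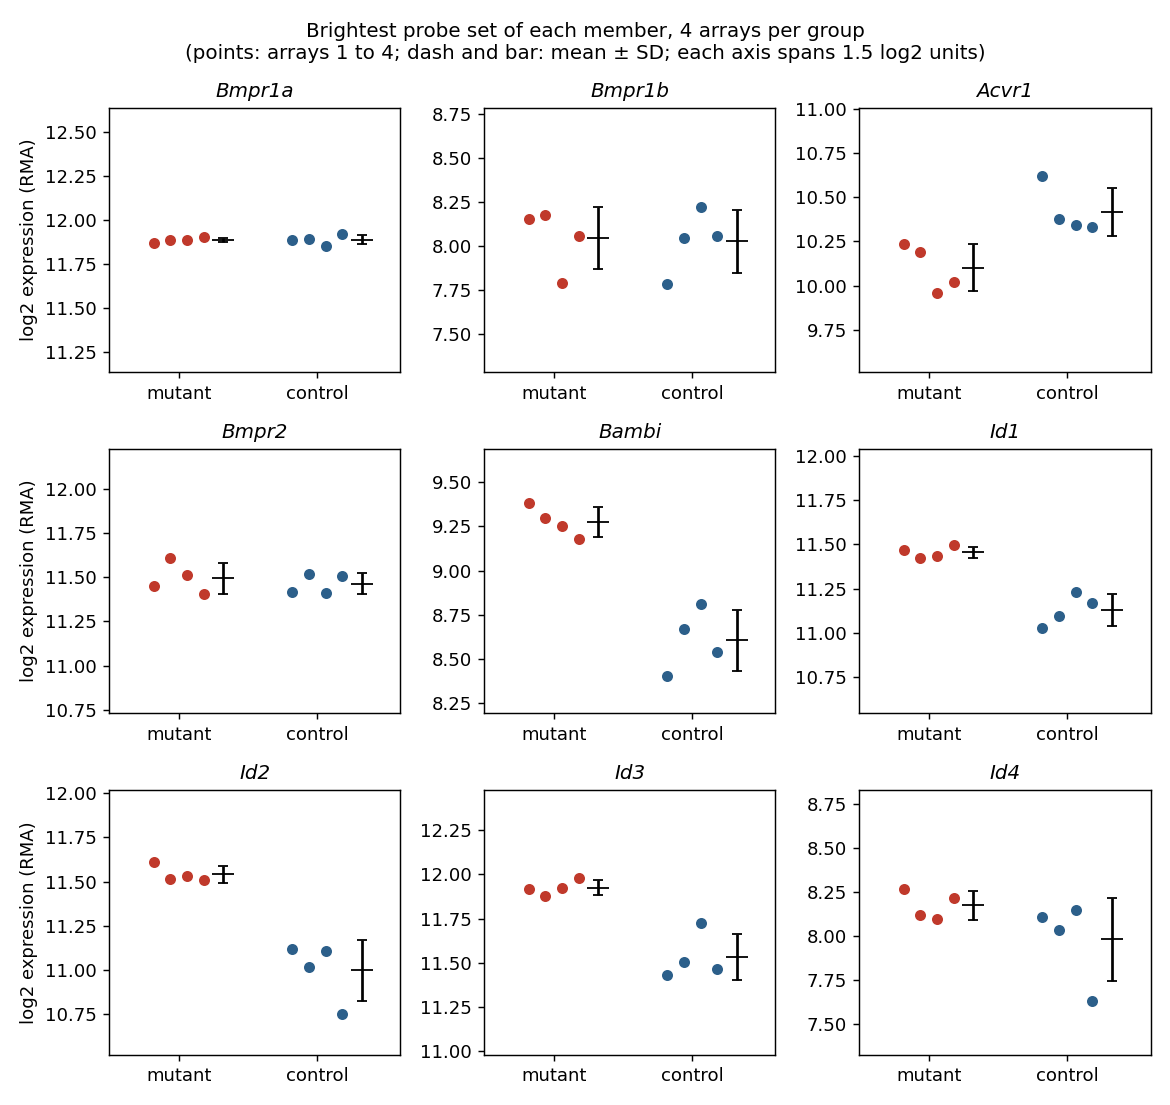
Log2 expression of the brightest probe set of each of the 9 genes on each array, with mutant arrays on the left of each panel (red) and control arrays on the right (blue), 4 per group, and the mean ± SD beside them. All 4 mutant arrays lie above all 4 control arrays for Bambi, Id1, Id2 and Id3, as in 8.92% of all genes. They lie below them for Acvr1, as in 8.87% of all genes, and the groups overlap for Bmpr1a, Bmpr1b, Bmpr2 and Id4.

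The type I receptors were measured by 12 probe sets. Bmpr1a, the widely used type I receptor also called ALK3, read 11.87, 11.89, 11.89 and 11.90 on mutants 1 to 4 and 11.89, 11.89, 11.85 and 11.92 on controls 1 to 4. The 2 groups lay on top of each other, with means of 11.89 ± 0.013 in mutants and 11.89 ± 0.027 in controls (SD, n = 4 each), and the 95% interval of the log2 change ran from −0.10 to 0.09. The other 5 Bmpr1a probe sets had log2 changes from −0.10 to −0.002, and none of the 6 passed.

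Bmpr1b, the type I receptor ALK6 known for its role in limb cartilage, read 8.16, 8.17, 7.79 and 8.06 on mutant arrays and 7.79, 8.04, 8.22 and 8.06 on control arrays. The groups overlapped fully (log2 change 0.02, 95% interval −0.23 to 0.26). Of its 3 probe sets, both dimmer ones had group means below the medians of all arrays, 4.60 in mutants against 4.67 in controls and 3.78 against 3.81, so that only the brightest set reads this gene above the middle of the array.

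Acvr1, the type I receptor ALK2, was the receptor whose groups did not overlap. Its brightest probe set read 10.24, 10.19, 9.96 and 10.02 on mutants 1 to 4 and 10.62, 10.38, 10.34 and 10.33 on controls 1 to 4. Every mutant array lay below every control array, a separation in that direction seen in 8.87% of all genes, and control 1 stood above the other controls. The log2 change was −0.32 (SE 0.087, 95% interval −0.51 to −0.12) and missed the threshold (limma adjusted p = 0.0504). Without mutant 1 it passed, at −0.36 (adjusted p = 0.0446), while the other 7 fits without single arrays gave −0.35 to −0.25 and did not pass. In all it passed in 5 of 18 alternatives, among them repeated quantile normalization (adjusted p = 0.0349). The other Acvr1 probe sets had log2 changes of −0.16 (adjusted p = 0.373 over all probe sets) and −0.003, the second with both group means below the array medians. With the mean of all Acvr1 probe sets the log2 change was −0.16.

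Bmpr2, the type II receptor, read 11.45, 11.61, 11.51 and 11.40 on mutant arrays and 11.42, 11.52, 11.41 and 11.51 on control arrays. The groups overlapped, with a log2 change of 0.03 (95% interval −0.10 to 0.16), and the dimmer sets had log2 changes of −0.06 and 0.07. Over the 15 receptor probe sets, 0 passed in limma and 1, the brightest of Acvr1, had an unadjusted p under 0.05. The changes of the receptors were compared in 6 pairs by an exact two-sided permutation test of the per-array difference. The log2 change of Bmpr1a minus that of Acvr1 was 0.31, and that of Acvr1 minus that of Bmpr2 was −0.35, each at an exact p = 0.0286, the smallest that 4 arrays against 4 allow. The 95% intervals, not adjusted for the number of pairs, ran from 0.07 to 0.56 and from −0.62 to −0.07. Adjustment over the 12 pairs examined gave 0.114 for both, but a pair at the smallest p can fall under 0.05 there only if at least 7 of the 12 are at it, so this adjusted p says little about either difference. The change of Bmpr1b minus that of Acvr1 was 0.33 (95% interval −0.06 to 0.73, exact permutation p = 0.0571). That interval included 0, as did those of the receptor pairs without Acvr1.

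Bambi, the pseudoreceptor, showed the largest change of the 9 genes. Its single probe set read 9.38, 9.30, 9.25 and 9.18 on mutants 1 to 4 and 8.40, 8.67, 8.81 and 8.54 on controls 1 to 4. The lowest mutant array stood above the highest control array, control 3, and the means were 9.28 ± 0.086 in mutants and 8.60 ± 0.17 in controls (SD, n = 4 each). The log2 change was 0.67 (SE 0.088, 95% interval 0.47 to 0.87, limma adjusted p = 0.00185). It passed in all 18 alternatives that could be run, with changes between 0.60 and 0.74.

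Id2, an Id gene of many progenitors, had the largest change within its family. The brightest set read 11.61, 11.52, 11.53 and 11.51 on mutant arrays and 11.12, 11.01, 11.10 and 10.75 on control arrays. The groups did not overlap, control 4 was the lowest array, and the log2 change was 0.54 (SE 0.082, limma adjusted p = 0.00349). A second Id2 set read 11.08, 10.88, 10.97 and 11.06 on mutant arrays and 10.46, 10.40, 10.34 and 10.22 on control arrays. Its groups stood further apart, at 0.64 (SE 0.071, limma adjusted p = 0.00156 over all probe sets). The third set had group means of 3.94 in mutants and 3.88 in controls, below the array medians, and a log2 change of 0.06 (adjusted p = 0.702).

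Id3, which with Id1 is prominent in blood vessels and mesenchyme of the embryo, read 11.92, 11.88, 11.93 and 11.98 on mutants 1 to 4 and 11.43, 11.50, 11.72 and 11.47 on controls 1 to 4. The groups did not overlap, with control 3 nearest to the mutants, and the means were 11.93 ± 0.041 in mutants and 11.53 ± 0.13 in controls (SD, n = 4 each). The log2 change was 0.39 (SE 0.068, limma adjusted p = 0.00695).

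Id1, the founding member of the family, read 11.47, 11.42, 11.43 and 11.50 on mutant arrays and 11.02, 11.09, 11.23 and 11.17 on control arrays. Again every mutant array was above every control array, as in 8.92% of all genes. The log2 change was 0.33 (SE 0.056, limma adjusted p = 0.0064). Id1, Id3 and Bambi are each read by a single probe set here, so no second set of the array bears on them.

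Id4, the member best known from the nervous system, read 8.27, 8.12, 8.09 and 8.22 on mutant arrays and 8.11, 8.03, 8.15 and 7.63 on control arrays. The groups overlapped, since control 3 lay above mutants 2 and 3, and the low mean of the controls came with control 4. The log2 change was 0.19 (95% interval −0.05 to 0.44, limma adjusted p = 0.318), and 0.08 without control 4. The other Id4 sets had log2 changes of 0.21 and 0.08, and control 4 was also the lowest array of the second, at 6.67.

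**Figure D2:**
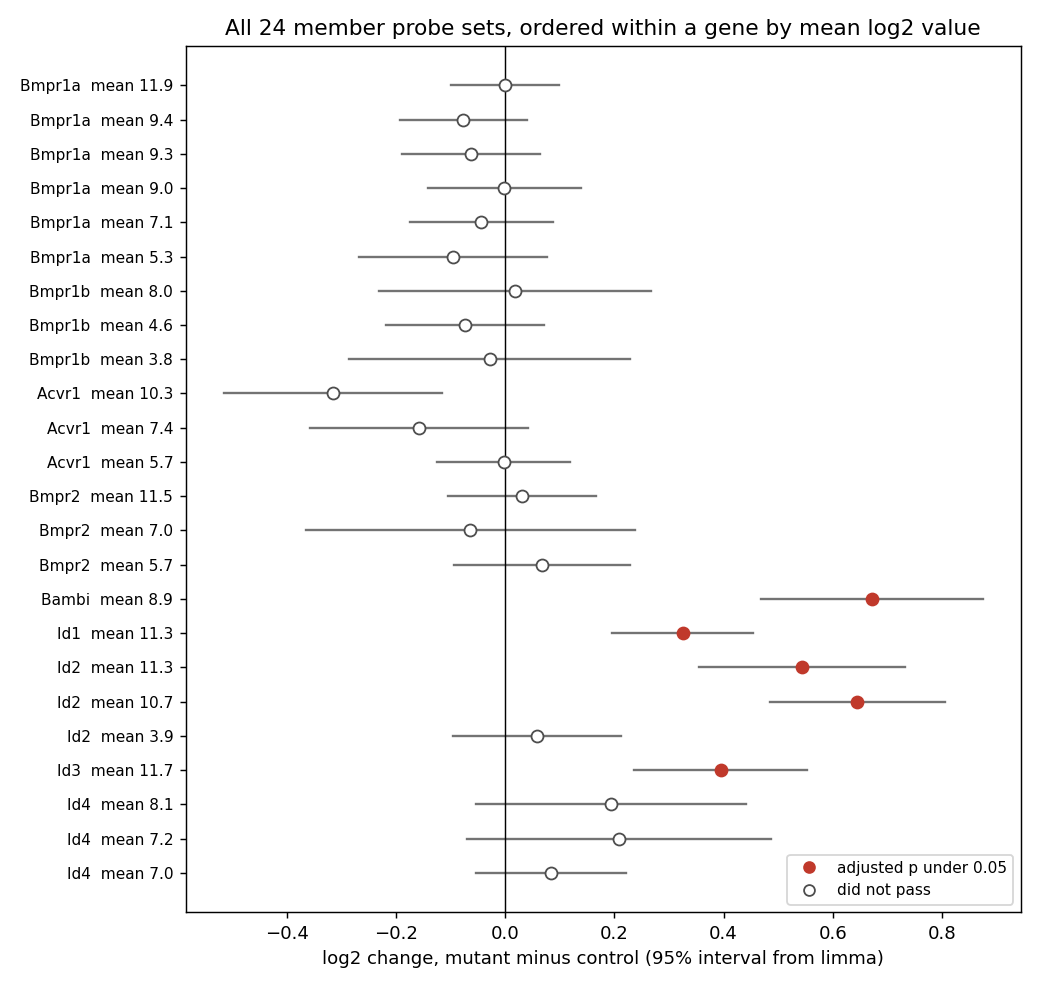
Log2 change (mutant minus control) of all 24 probe sets with its 95% interval from limma, listed by gene and within a gene from the highest to the lowest mean log2 value. Filled points passed an adjusted p of 0.05 over all 34945 probe sets: Bambi, Id1, both bright sets of Id2 and Id3, 5 of the 24, all of them higher in mutants.

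Counted by probe set, 5 of the 24 were called higher and 0 lower, against 2.69% and 3.25% of the 34945 probe sets. Of the 8 Id probe sets 4 passed. Among the 6 pairs of Id genes, the change of Id2 exceeded that of Id4 by 0.35 (95% interval 0.24 to 0.47, exact permutation p = 0.0286, adjusted p = 0.114 over the 12 pairs). The change of Id1 minus that of Id2 was −0.22 (95% interval −0.49 to 0.05), and that of Id1 minus that of Id3 was −0.07 (95% interval −0.17 to 0.03). The Id2 and Id4 pair was at the smallest p that the arrays allow, like the pairs of Acvr1 with Bmpr1a and with Bmpr2 above. The limit on its adjusted p is the same. The intervals of the other 5 Id pairs included 0.

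The arrays of a group were not alike in these genes. In the brightest sets of Id1, Id2, Id3, Id4 and Bambi the SD was smaller among mutants for all 5, for example 0.033 against 0.090 in controls for Id1. The second sets of Id2 and Id4 went the same way. Their dimmest sets did not, at 0.095 in mutants against 0.091 in controls and 0.078 against 0.074. Mutant arrays also correlated more closely over all probe sets (0.995 to 0.998, against 0.992 to 0.997 among controls). Among the receptors the SD was larger in mutants for Bmpr2 (0.088, against 0.059 in controls). It was nearly equal for Acvr1 (0.133 against 0.137) and Bmpr1b (0.176 against 0.178), and smaller in mutants for Bmpr1a (0.013 against 0.027). The share of all genes with a smaller SD in mutants was not counted, so the smaller SD cannot be called particular to these 5 genes. Control 1 was the lowest control array for Id1, Id3 and Bambi, and control 4 the lowest for Id2 and Id4. Control 3, the array without Y-linked signal, was the highest control for 4 of the 5 genes, the exception being Id2, where control 1 was highest. Without controls 1 and 3 together, Id1, Id2, Id3 and Bambi still passed, and the log2 change of Id2 was 0.66.

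The bases before the transcription start are shown for Id2 and Id3, which rose together, and for Id4, which did not pass, so that the letters before a raised and an uncalled family member can be set side by side. They come from RefSeq (build GRCm38.p6), and each is the 250 bases before an annotated start, 5′ to 3′ on the strand of the gene. Windows of 7 of the 9 genes were used, without Id1 and Bambi. Windows on a single chromosome were skipped, so the absence of a gene here need not mean that RefSeq lacks it. Id2 lies on the minus strand (chr12:25096093-25096342), Id3 on the plus strand (chr4:136143572-136143821) and Id4 on the plus strand (chr13:48260866-48261115). Capitals mark GGCGCC, a GC-rich motif of the BMP Smads, and GTCTG or its complement CAGAC, which hold the core of the Smad box.
Id2: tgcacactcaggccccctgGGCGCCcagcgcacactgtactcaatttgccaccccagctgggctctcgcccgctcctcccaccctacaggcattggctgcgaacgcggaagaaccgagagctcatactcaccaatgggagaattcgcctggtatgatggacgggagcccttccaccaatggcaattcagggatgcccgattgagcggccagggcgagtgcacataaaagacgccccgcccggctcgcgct
Id3: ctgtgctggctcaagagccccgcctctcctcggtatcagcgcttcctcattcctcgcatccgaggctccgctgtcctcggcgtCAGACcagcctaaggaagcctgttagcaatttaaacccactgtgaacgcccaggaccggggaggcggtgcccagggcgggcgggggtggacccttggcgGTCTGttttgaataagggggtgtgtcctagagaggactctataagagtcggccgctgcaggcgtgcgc
Id4: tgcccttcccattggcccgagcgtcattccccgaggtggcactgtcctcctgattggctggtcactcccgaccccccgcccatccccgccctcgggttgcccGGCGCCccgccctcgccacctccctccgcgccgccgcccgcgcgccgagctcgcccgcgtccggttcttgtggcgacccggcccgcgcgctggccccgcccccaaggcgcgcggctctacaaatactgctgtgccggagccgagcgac

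In these windows Id2 and Id4 each held 1 match to GGCGCC, starting 231 and 148 bases before the start, and Id3 held none. GTCTG in either orientation was found in Id3 only, with 2 matches whose first bases lie 167 and 68 bases before the start. Of 32851 promoters of this length, 9.59% held GGCGCC, which reads the same on both strands, and 42.2% held GTCTG on either strand. CCAAT on either strand, the box bound by NF-Y, occurred in 3 places in Id2 and 2 in Id4, and in 33.8% of all promoters, and TATAAA on either strand, found in 12.4%, was in none of the 3. The motifs marked in capitals did not overlap each other. Id2 and Id3, which both rose, have no marked motif in common within this window. Among the receptors, Bmpr1a and Bmpr2 each held 1 GGCGCC. A match describes the letters of the window and does not show a bound site.

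Outside the 9 genes, the rest of the pathway was followed through 71 measured genes in 6 lists, with a median log2 change of −0.01. Of these, 8 were called higher and 9 lower, where 4.2% of all 18193 genes tested were called higher and 5.52% lower. A single call in a short list is close to these shares and says little about that list. Of the 9 BMP ligand genes measured, 0 passed in limma and 0 had an unadjusted p under 0.05. For 3 of them, Bmp8a included, both group means lay below the array medians, where changes are hard to see. The smallest p belonged to Bmp6 (log2 change −0.12), Bmp7 (0.08) and Bmp8a (0.08). The ligand genes did not pass, while among 14 genes of secreted antagonists and modulators 2 fell and 0 rose. In that list 6 genes had an unadjusted p under 0.05 in limma, all of them lower in mutants, and the median log2 change was −0.13. Bmper, a secreted protein that binds BMP outside the cell, read 7.48, 7.31, 7.31 and 7.12 on mutant arrays and 8.69, 8.69, 8.58 and 8.70 on control arrays. Its groups lay more than 1 log2 unit apart at every array, and the log2 change was −1.36 (SE 0.075, limma adjusted p = 3.16e-05). Vwc2, another secreted BMP antagonist, fell by 1.74, read by a set of the _x_at kind whose probes may pick up further transcripts, and without _s_at and _x_at sets its log2 change was −0.13 (adjusted p = 0.487) in a set whose means of 3.80 in mutants and 3.93 in controls lay below the array medians. Grem1, the antagonist gremlin, missed the threshold at −0.46 (adjusted p = 0.0655).

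**Figure D3:**
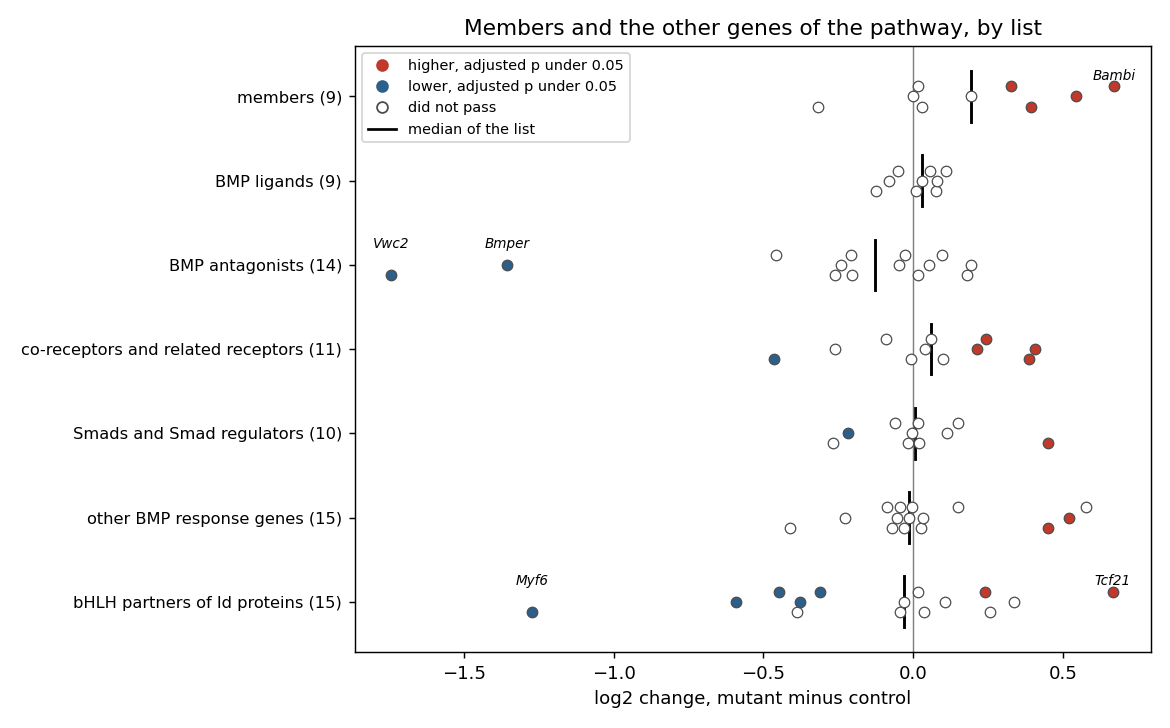
Log2 change (mutant minus control) of the 9 genes (top row) and of the measured genes of 6 lists of the pathway, with the number of genes in parentheses and each list's median as a black line. Filled red points passed higher in mutants and filled blue points lower, with names given where the change was at least 0.6; Bambi and Tcf21 are at the right end and Vwc2, Bmper and Myf6 at the left.

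Of 11 related receptors and co-receptors 4 rose and 1 fell. Acvr2b, an activin type II receptor that also serves BMP ligands, read 8.75, 8.75, 8.95 and 8.80 on mutant arrays and 8.40, 8.35, 8.31 and 8.57 on control arrays (log2 change 0.41, SE 0.072, limma adjusted p = 0.0077), a call lost once controls 1 and 3 were removed (0.36, adjusted p = 0.0605). Its relative Acvr2a rose by 0.21 (adjusted p = 0.0252) and Neo1, the netrin receptor that works with the BMP co-receptors of the RGM family, by 0.24 (adjusted p = 0.0462), though when single arrays were removed Acvr2a passed in 4 of 8 fits and Neo1 in 1. None of the 5 probe sets of Neo1 passed over all probe sets. Tgfbr1 rose and Tgfbr2, its type II partner, fell (log2 change −0.47), with the last call lost when all probe sets of the gene were averaged (−0.21, adjusted p = 0.073).

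Of 10 Smads and their regulators 1 rose and 1 fell. Smad6, the inhibitory Smad that BMP induces, read 9.09, 9.12, 9.28 and 9.22 on mutant arrays and 8.88, 8.65, 8.68 and 8.71 on control arrays, with no overlap (log2 change 0.45, SE 0.067, limma adjusted p = 0.00334). Ski, a co-repressor of Smads, fell by 0.22 (passing in 1 of 8 fits when single arrays were removed). Neither of its 2 probe sets passed over all probe sets, and the dimmer one had a log2 change of −0.02 (adjusted p = 0.982). With the mean of its sets the log2 change was −0.12 (adjusted p = 0.697). Skil, the relative of Ski, had a log2 change of −0.27 (adjusted p = 0.0637). The Smads that carry the BMP signal, Smad1, Smad5, Smad9 and Smad4, did not pass, and both group means of Smad9 lay below the array medians.

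Of 15 other genes known to respond to BMP, 2 rose and 0 fell, and the median log2 change was −0.01. The 2 were Smad6 and Gata2, a zinc-finger transcription factor, which rose by 0.52 with overlapping groups and passed in 2 of those 8 fits. Gata3 had a log2 change of 0.58 and missed the threshold (adjusted p = 0.0677). The homeobox genes Msx1 and Msx2, Atoh8 and Smad7 did not pass, and both group means of Msx2 lay below the array medians.

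Id proteins act on bHLH factors, and of 15 such genes 5 fell and 2 rose. The genes of muscle differentiation Myog, which encodes myogenin, and Myf6, which encodes MRF4, fell, with log2 changes of −0.38 (limma adjusted p = 0.00516) and −1.27 (adjusted p = 0.00953, or 0.0589 without variance moderation). Myod1 fell by 0.31, passing in 2 of the 8 fits without single arrays. Scx, the scleraxis of tendon, fell by 0.45 (passing in 6 of the 8, and at −1.27 without _s_at and _x_at sets), and Neurog2, a neurogenic factor whose group means of 4.16 in mutants and 4.75 in controls lay below the array medians, by 0.59. Tcf3, which encodes the E proteins E12 and E47 that Id proteins bind, rose by 0.24 (SE 0.050, adjusted p = 0.0163, passing in 5 of the 8). Tcf21, a factor of head mesenchyme and muscle precursors, rose by 0.67, or by 0.28 with the mean of its probe sets. The other E protein genes, Tcf4 and Tcf12, did not pass, nor did the muscle factor gene Myf5 (log2 change 0.10, adjusted p = 0.456). Myog and Myod1 also belong to the skeletal muscle marker list described below, so their fall is counted in both lists.

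Markers of cell types in the bud also differed on these arrays. The counts of all marker lists stand beside 4.2% of all genes called higher and 5.52% called lower, and a single call in a list is close to these shares. Of 12 endothelial markers 4 rose and 0 fell, and their summed linear level ran from 4359.9 to 5235 on mutant arrays and from 3710.5 to 3958 on control arrays, without overlap. No marker of that list lay below the array medians in both groups. Of 10 skeletal muscle markers 9 fell, with sums from 29384 to 36458 on mutant arrays and from 46325 to 52809 on control arrays. Of 10 markers of neural crest mesenchyme 3 rose and 1 fell. Their sums overlapped, from 17378 to 19248 on mutant arrays and from 14585 to 17727 on control arrays. The mean log2 value of that list did not overlap, at 9.81 to 9.93 on mutant arrays and 9.43 to 9.71 on control arrays. In the lists of muscle and of neural crest mesenchyme, the cells the labelled tissue should hold, no marker lay below the array medians in both groups. The part of these cell types in the rise of the Id genes and Bambi was not tested.

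**Figure D4:**
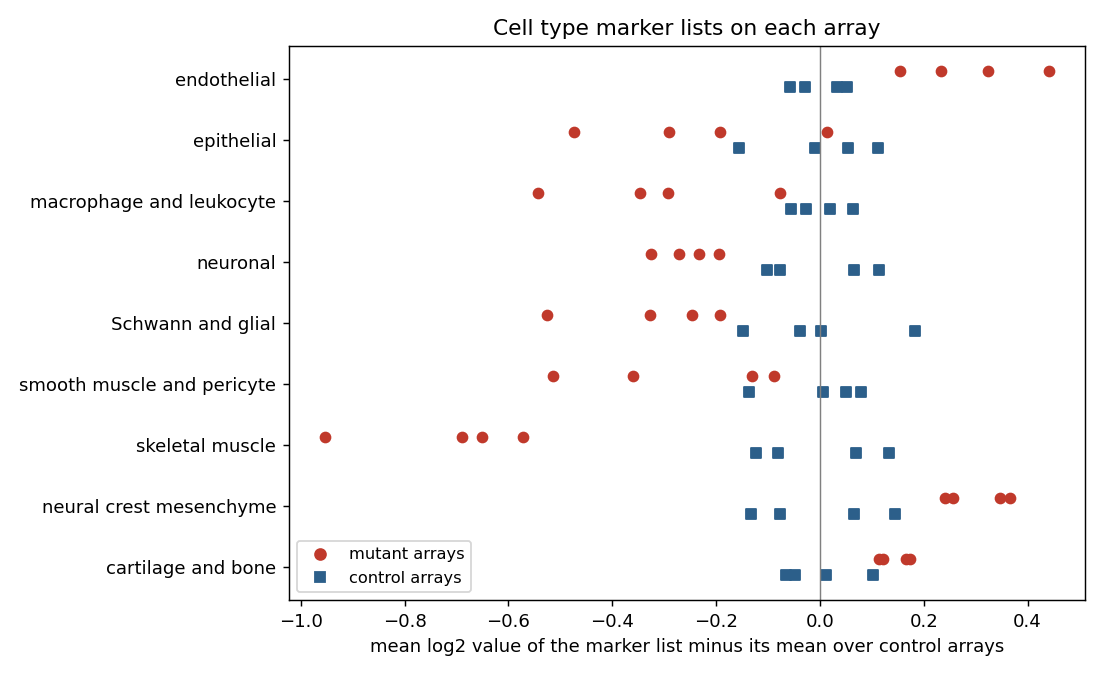
Mean log2 value of each cell type marker list on each array, less the mean of that list over the control arrays, with mutant arrays as red circles above and control arrays as blue squares below. Endothelial, neural crest mesenchyme, and cartilage and bone markers sit to the right of the controls on all mutant arrays. Skeletal muscle, neuronal, Schwann and glial, and macrophage and leukocyte markers sit to the left, while epithelial and smooth muscle and pericyte markers overlap.

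Outside the endothelial, skeletal muscle and neural crest lists, 4 of 11 macrophage and leukocyte markers and 3 of 5 Schwann cell and glial markers fell. So did 3 of 8 smooth muscle and pericyte markers, 4 of 8 neuronal markers and 1 of 10 epithelial markers. Of the neuronal markers 2 rose, as did 1 of 7 cartilage and bone markers. The summed linear level of the cartilage and bone markers ran from 2704 to 3209.9 on mutant arrays and from 1662 to 2094 on control arrays, without overlap. Of these 7 markers, 3 lay below the array medians in both groups. The neuronal sum was also higher on every mutant array, from 2916 to 3455 against 2071 to 2373 on control arrays, while the mean log2 value of the same list was lower, at 7.23 to 7.36 on mutant arrays and 7.45 to 7.67 on control arrays. Sums were lower on every mutant array for macrophage and leukocyte markers (1901 to 2824, against 2920.3 to 3174 on control arrays), Schwann cell and glial markers (1949 to 2575, against 2599.7 to 3291) and smooth muscle and pericyte markers (12925 to 14827, against 15494 to 16422). Those of epithelial markers overlapped, from 12105 to 16811 on mutant arrays and from 14228 to 17702 on control arrays. The mean log2 value of the smooth muscle and pericyte list, unlike its sum, overlapped, at 8.54 to 8.97 on mutant arrays and 8.92 to 9.14 on control arrays. The part of these lists in the changes of the 9 genes was not tested either.

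The genes whose pattern over the 8 arrays was most like that of a called member were sought among 12116 genes with a mean log2 value of at least 6, by the root mean square difference after each gene's control mean was subtracted. For Bambi they were P2ry1 (0.0751), Car14 (0.0802) and Sipa1 (0.102). For Id2 they were Cntrl (0.068), Dtwd2 (0.0756) and Arhgap12 (0.0812). Those of Id1 were Aaas (0.0378), E2f6 (0.0388) and Dcakd (0.0406), and those of Id3 were Dtd2 (0.0546), Zfp516 (0.0575) and Zfp811 (0.0577). All 12 rose in mutants by a similar amount, which the measure requires, and the list describes these arrays only.

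**Figure D5:**
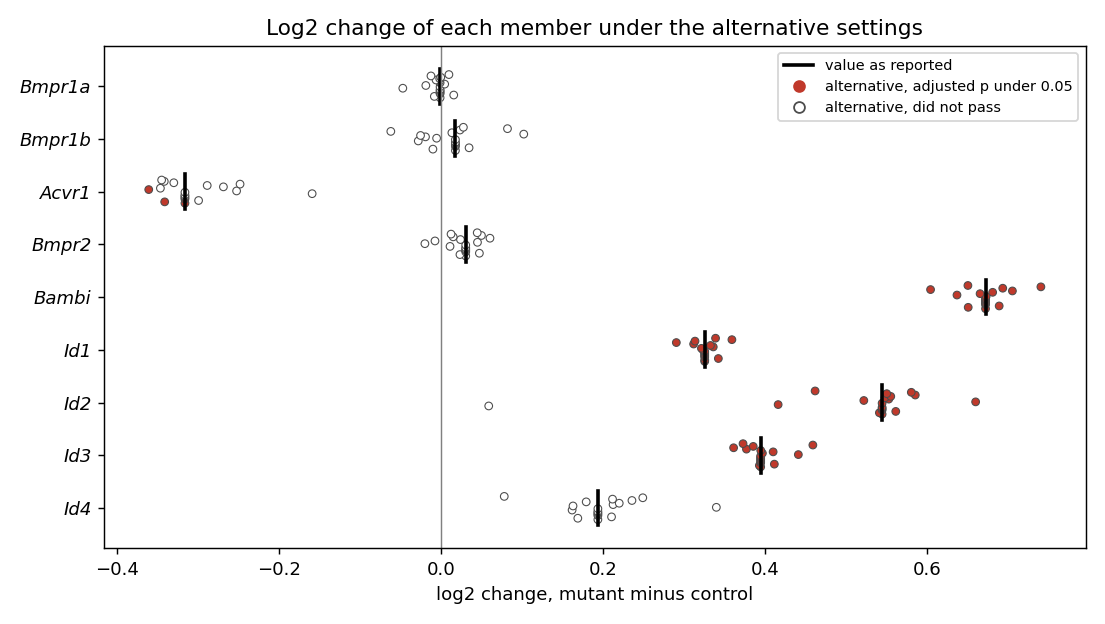
Log2 change (mutant minus control) of each of the 9 genes as reported (black line) and under the alternative settings (points, filled where the adjusted p was under 0.05). Bambi, Id1 and Id3 keep their side of the threshold in every alternative that could be run, Id2 has 1 unfilled point near 0.06, and Acvr1 has points on both sides of the threshold.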

How the data were processed

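The unit of the deposited table is log2 expression, which the authors made with RMA, per the submitters' processing notes (version and settings not given in the sources used here). RMA makes array distributions alike, which can remove shifts common to many genes. Of 45101 probe sets, 34945 named 1 gene in the platform annotation, 932 named several and 9160 none. Those naming several or none, and 64 controls, were left out. A gene was read from its probe set of highest mean over all arrays, which gave 18193 genes, with no filter on dim sets. Groups of 4 arrays were tested by lmFit and eBayes (limma 3.58.1, R 4.3.3, two-sided, no block), adjusted over all genes or probe sets. In simulated data for 18193 genes this found 82 of 100 changes of 0.5 and 95 of 100 changes of 1 (log2), and 8 false ones. Pairs of genes were compared by exact permutation over arrays. Levels of different probe sets cannot be compared, and a summed level of a marker list is weighted toward its brightest sets. The 9 genes, the lists and the tests were chosen with earlier results of these data known. The text names the 9 genes, Tgfbr1, called genes and the 3 of smallest p of each pathway list, and the 3 most alike genes of each called Id gene and Bambi, while other genes are named only as not passing. Alternatives concerned a block for the replicate number, normalization, dim sets, variance moderation, probe set choice and arrays left out. The number of arrays limits the precision.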

Additional observations from a re-analysis of the deposited data

Results flagged for a closer look

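Control 1 stood apart in the brightest probe set of Acvr1, with a log2 value of 10.62 where the other controls read 10.33 to 10.38. The gap to the nearest array was 0.845 of the range of the controls, above Dixon's critical value for 4 arrays. It was the only one of 48 groups examined (24 probe sets in 2 groups), where chance gives about 1 in 20. Without control 1 the log2 change of Acvr1 was −0.25 (limma adjusted p = 0.0842), against −0.32 with all arrays.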

How the results depend on the processing

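Counted by gene, Id3 and Bambi passed in all 18 alternatives, and Id1 in all 17 that hold it. Id2 passed in 17. Without sets ending in _s_at, _x_at or _a_at, 2 of the 9 genes and 2 of their probe sets passed, since this removes the only Id1 set and both bright Id2 sets. The remaining Id2 set gave 0.06 (adjusted p = 0.664). Without _s_at and _x_at sets only, chosen after seeing the data, 4 of the 9 passed. Dropping each array in turn, between 4 and 5 of the 9 passed, as did 5 of their probe sets, 12 to 16 pathway genes and 1150 to 1590 genes overall (1150 without mutant 2, 1175 without mutant 4, 1155 without control 2) against 1768. With the replicate number as a block, 966 genes passed, with 5 of the 9 genes and 3 of their probe sets. Over all probe sets the calls of Id1 (adjusted p = 0.0757) and Id3 (0.0679) were lost there. The labels do not say whether equal numbers pair the samples. Correlations of deviations of same-numbered arrays were −0.58, −0.13, −0.34 and −0.38, and 0 of 4 mutants correlated best with their own number. With so few arrays, these values show no pairing by number but cannot exclude it. Pathway genes called were 11 without variance moderation and 11 without controls 1 and 3, against 17. Small receptor changes turned sign without passing. Bmpr1a was 0.016 with median centring and −0.013 to 0.0096 with 1 array left out. Bmpr1b was −0.010 with repeated quantile normalization, −0.028 with the mean of its sets, −0.0056 without controls 1 and 3, and −0.062 to 0.10 with 1 array left out. Bmpr2 was −0.020 without controls 1 and 3, and −0.0076 to 0.060 with 1 array left out. The cause was not tested. Of the 24 probe sets, 6 lay below the array medians, where changes are hard to see.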
